A study of Homo sapiens with 24 samples.

Results

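The BCL2 family decides whether a cell opens the outer membrane of its mitochondria and dies by apoptosis, and 10 of its genes were followed here by symbol through the count tables of miRNA-treated breast cancer cells. They are BCL2, BCL2L1 and MCL1, which encode anti-apoptotic proteins, the pore-forming effectors BAX and BAK1, and the BH3-only genes BCL2L11, BBC3, PMAIP1, BID and BAD. All 10 were found among the 26364 genes of the tables, and all 10 passed the filter on low counts in every comparison. The cells were of the established line T-47D, derived from an ER-positive breast tumour, in which the ESR1 gene at its endogenous locus was WT or heterozygous for the Y537S or the D538G mutation. Each genotype was represented by 2 clones, and 1 library was made per clone and condition, which gave 24 libraries in 12 conditions. All cells were kept in hormone-deprived medium, transfected at 10 nM and collected 24 h later. WT cells (clones D1 and D4) received the hsa-miR-301b-3p, hsa-miR-331-3p or hsa-miR-181c-5p mimic, or a control mimic. D538G cells (clones A5 and C2) received the miR-301b or miR-181c mimic, or the control mimic. Y537S cells (clones 1 and 2) received the miR-301b or miR-331 mimic, the control mimic, an inhibitor of hsa-let-7f-5p, or a control inhibitor. Mimics are synthetic RNAs that stand in for a mature miRNA, inhibitors are oligonucleotides that keep a miRNA from its targets, and the control oligonucleotides have no intended target. Clones are separate cell lines, so the spread between them includes differences between clones of the same genotype.

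In healthy cells the anti-apoptotic proteins hold BAX and BAK in check. BH3-only proteins, induced or activated by stress, bind the anti-apoptotic proteins or activate BAX and BAK directly, and cytochrome c then leaves the mitochondria and caspases are activated. In ER-positive breast cancer BCL2 is known as an estrogen-responsive gene, and MCL1 and BCL-XL, the product of BCL2L1, are studied as drug targets. Only RNA was measured here, while several of these proteins are controlled by their turnover, cleavage or phosphorylation.

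The 4 miRNAs whose activity was changed are shown first, because their seeds (bases 2 to 8, in capitals) set which 3′UTRs they can pair with. The mature sequences are from RefSeq (GRCh38.p14), and no seed is shared between them.
hsa-miR-301b-3p: cAGUGCAAugauauugucaaagc
hsa-miR-331-3p: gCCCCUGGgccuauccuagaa
hsa-miR-181c-5p: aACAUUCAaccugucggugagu
hsa-let-7f-5p: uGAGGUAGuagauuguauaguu

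The 3′UTR of the canonical transcript of each member was searched for the 7 bases complementary to each seed (TTGCACT for miR-301b, CCAGGGG for miR-331, TGAATGT for miR-181c and CTACCTC for let-7f, on the strand of the mRNA). A match was found in 8 pairs of a member and a miRNA. BCL2L11 held a match for each of the 3 mimics. BCL2L1 held one for miR-331 and one for let-7f, BAK1 held 2 for miR-331, and BCL2 and PMAIP1 each held one for miR-181c. MCL1, BAX, BBC3, BID and BAD held none. Of 18533 genes with a 3′UTR, 14.3% held a match for miR-301b, 14.2% for miR-331, 19.7% for miR-181c and 9.92% for let-7f. The members' 3′UTRs ran from 165 bases in BAX and 382 in BAD to 4216 in BCL2L11 and 5282 in BCL2. The shares over all genes were not matched for this length. The sites of the mimics in BCL2L11, BCL2L1, BAK1 and BCL2 are printed below from hg19 (GRCh37), 5′ to 3′ on the mRNA strand and with the match in capitals, so that they can be read against the changes of these genes.
BCL2L11 3′UTR, miR-301b, chr2:111925886-111925911, plus strand: tggcttacttgtgttTTGCACTgatg
BCL2L11 3′UTR, miR-331, chr2:111923885-111923910, plus strand: cctgccctgtgctgcCCAGGGGctgt
BCL2L11 3′UTR, miR-181c, chr2:111922001-111922026, plus strand: aatggaagtttgttgTGAATGTaaag
BCL2L1 3′UTR, miR-331, chr20:30252590-30252615, minus strand: tggcctgtctcatccCCAGGGGtccc
BAK1 3′UTR, miR-331, first site, chr6:33541355-33541380, minus strand: gccctctctctgggcCCAGGGGctgt
BAK1 3′UTR, miR-331, second site, chr6:33540566-33540591, minus strand: ctggcacagtgtaatCCAGGGGtgta
BCL2 3′UTR, miR-181c, chr18:60792952-60792977, minus strand: acatgttagaagcaaTGAATGTatat
The matches in BCL2 and BCL2L11 for miR-181c were followed by an A on the mRNA, which makes them 8 bases long, and the other sites printed were not.

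Libraries held 31379962 to 50526442 counts, with a median of 39878595. The identity of the cells was checked with marker genes: 9 luminal epithelial genes summed to 9944 to 15412 CPM (counts scaled to library size) per library and 11 markers of leukocytes, fibroblasts, endothelium and basal cells summed to 52.8 to 85.2 CPM, of which COL1A1 took 47.5 to 81.2 and COL1A2, PTPRC, PECAM1, VWF, KRT5 and KRT14 were each at most 0.355. Of the other markers in that list, CD68 lay at 2.33 to 5.56 CPM, and TP63 reached 8.15, DCN 0.947 and CD3E 0.711 CPM. Poly-A libraries do not measure the mature miRNAs, and the activity of the mimics was not read from their targets here. The study reported that predicted targets were enriched among the genes lowered by each mimic, only weakly for miR-331. After every mimic the log2 fold changes of all genes followed the GC content of their transcripts. In the fifth of genes with the highest GC content the median log2 fold change lay between 0.29 and 0.50, and in the fifth with the lowest it lay between -0.41 and -0.16. With the let-7f inhibitor these medians were 0.009 and -0.11. The members span this range, from PMAIP1 at 36.7% GC, BCL2 at 44.4%, MCL1 at 45.1%, BCL2L11 at 45.5% and BID at 48.0% to BCL2L1 at 56.6%, BAK1 at 58.6%, BAX at 60.8%, BAD at 65.8% and BBC3 at 69.7%. Values with the GC trend removed from each library are therefore given beside the main ones.

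The members differed widely in level. Divided by the length of the canonical transcript, BCL2L1 had the highest median (87.9 CPM per kb) and MCL1 was next (84.2), and BCL2L1 lay above MCL1 in 18 of the 24 libraries, so the order of this pair was not the same in all libraries. BAD followed with 41.2 CPM per kb, BAX with 25.0, BID with 12.8 and BAK1 with 10.4. BID lay above BAK1 in 20 of the 24 libraries, and the other neighbours named so far in the order were separated in 23 or 24. The lowest levels were those of BCL2L11 (2.99 CPM per kb), BBC3 (1.80), PMAIP1 (0.737) and BCL2 (0.259). BCL2, the gene that gave the family its name, was thus the lowest of the anti-apoptotic members in every library, with 27 to 175 counts, against at least 6635 for BCL2L1 and 8377 for MCL1. PMAIP1 had 16 to 120 counts and BBC3 70 to 209, and the precision of the values of these genes is limited by counting. Transcript lengths are those of the annotation, not of the isoforms present in these cells.

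**Figure D1:**
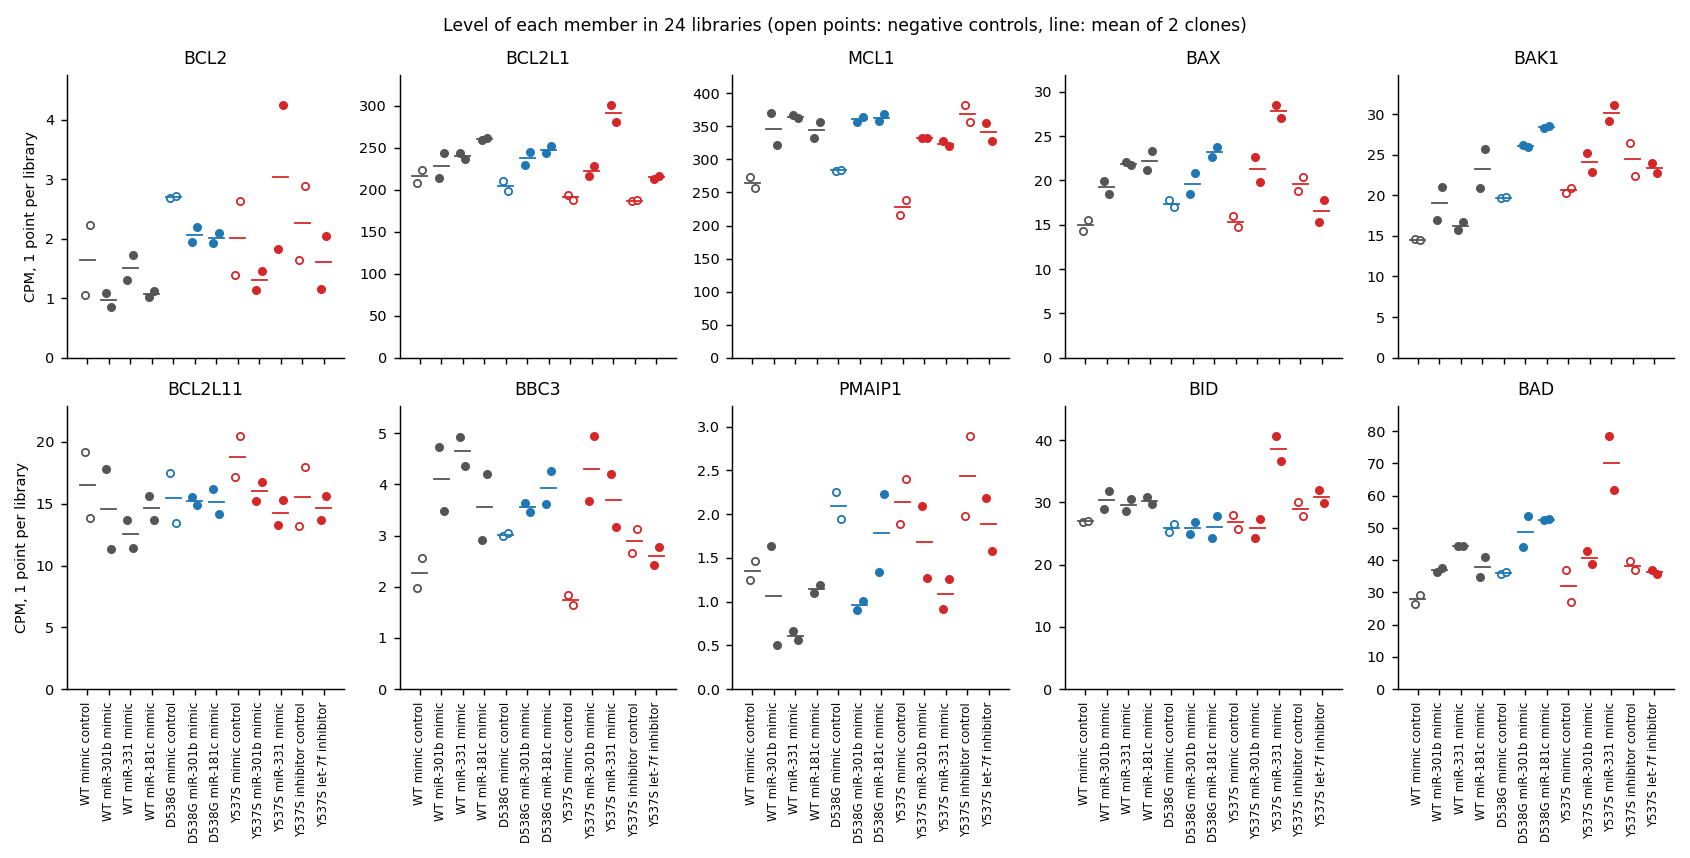
Level of each of the 10 members in CPM (vertical axis from 0) in the 24 libraries, grouped by condition on the horizontal axis; grey, WT; blue, D538G; red, Y537S; open points, negative controls; lines, means of 2 clones. MCL1 is at 216 to 284 CPM in all mimic controls and at 320.4 CPM or more elsewhere, while BCL2 reaches at most 4.25 CPM.

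To determine how the members respond to a change in miRNA activity, each mimic or inhibitor was set against the control oligonucleotide of its kind within a genotype. No member was called lower in any of the 8 comparisons, while after the 7 mimics 2.34%, 15.8%, 6.49%, 3.95%, 3.87%, 10.6% and 8.28% of all genes were called lower (miR-301b and miR-331 in Y537S, miR-301b and miR-181c in D538G, and miR-301b, miR-331 and miR-181c in WT cells). By contrast, 26 of the 70 tests of a member after a mimic were called higher (edgeR quasi-likelihood test, Benjamini-Hochberg adjusted p under 0.05, 2 libraries against 2). In Y537S cells 7 of the 10 rose after the miR-331 mimic (BCL2L1, MCL1, BAX, BAK1, BBC3, BID and BAD), where 17.2% of all genes tested were called higher. In WT cells 4 rose after it (MCL1, BAX, BBC3 and BAD), where 14.2% of all genes were called higher. After the miR-181c mimic 5 rose in WT cells (BCL2L1, MCL1, BAX, BAK1 and BAD; 8.1% of all genes called higher) and 4 rose in D538G cells (BCL2L1, MCL1, BAK1 and BAD; 5.58%). After the miR-301b mimic 3 rose in D538G cells (MCL1, BAK1 and BAD; 5.29%), 2 in WT cells (MCL1 and BAD; 4.63%) and 1 in Y537S cells (MCL1; 1.23%). The median log2 fold change of the 10 members after a mimic was between 0.18 and 0.59, and the median over all genes tested was between -0.01 and 0.01. The members' median was also 0.20 for the inhibitor control against the mimic control in Y537S cells, with 8 of 10 positive. With the GC trend removed, the median of the members was 0.57 after miR-331 in Y537S cells, against 0.09 over all genes. After the other mimics it was between -0.02 and 0.12, against -0.04 to 0.01 over all genes. In these bulk libraries, less RNA per cell and a smaller share of the cells that express a gene cannot be told apart. Comparisons in the same genotype share their control libraries, so their results are not independent of each other. With 2 libraries in each group an exact permutation test of a single gene cannot give a two-sided p below 0.333, and the calls rest on the spread that edgeR shares among genes.

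The libraries of a clone come from the same cell line, and the clone was used as a block in an alternative fit. With it, 36 tests were called higher and 5 lower. It raised the number of members called after miR-301b from 1 to 5 in Y537S cells (all higher; 18.4% of all genes called higher with the block), from 3 to 5 in D538G cells (4 higher and PMAIP1 lower; 16.4% and 16.9%) and from 2 to 5 in WT cells (all higher; 14% higher). After miR-331 in WT cells it raised the number from 4 to 7, of which BCL2L11 and PMAIP1 were lower (17.2% of all genes lower and 19.8% higher), and in Y537S cells it added the same pair of genes to the lower side (30.2%, and 30.5% higher). After miR-181c it added BAX in D538G cells (15.6% higher) and left 5 members called in WT cells (14.5%). The shares of all genes called with the block are large, and the members' counts are to be read beside them.

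**Figure D2:**
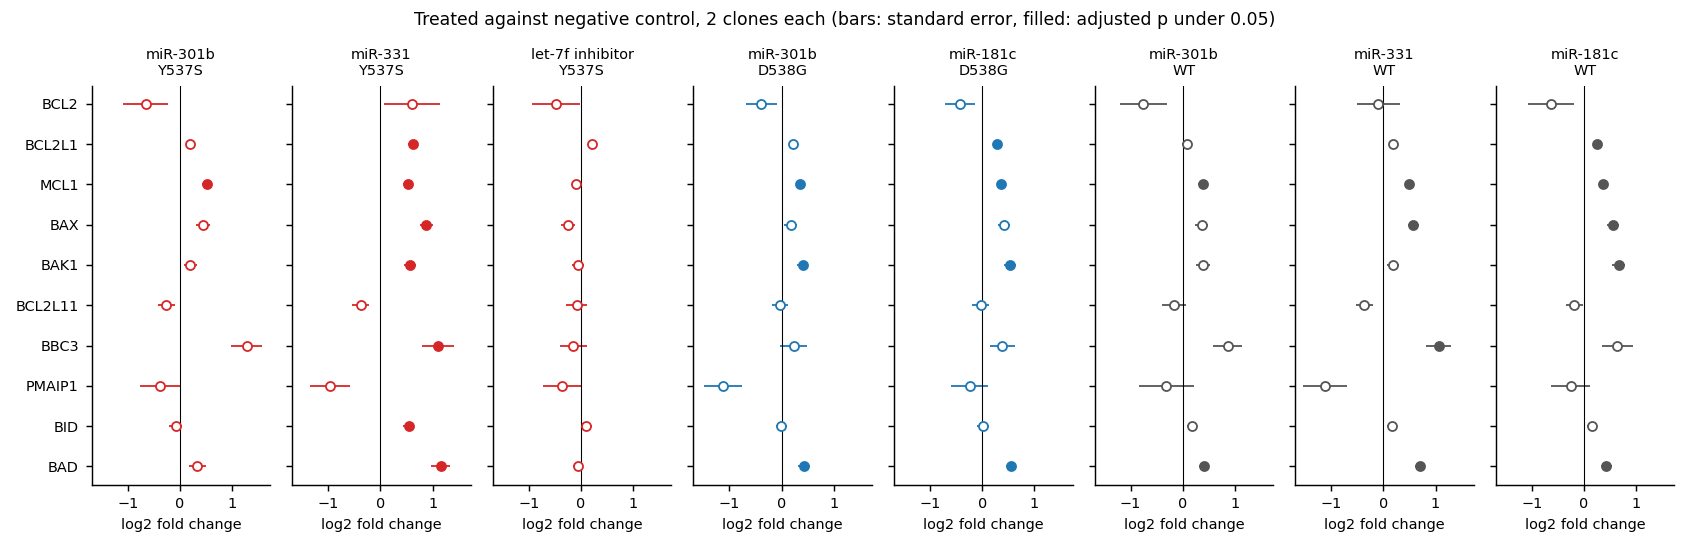
Log2 fold change of each member (rows) in the 8 treatment comparisons (panels; horizontal axis, treated against negative control, with standard errors); filled points passed an adjusted p of 0.05, open points did not. MCL1 is filled in all 7 mimic panels at 0.34 to 0.52, and no point left of 0 is filled.

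MCL1 (chr1:150533371-150552214, minus strand) encodes a short-lived anti-apoptotic protein that binds BAK and several BH3-only proteins, and it was the only member called after every mimic in every genotype. In cells given the mimic control it stood at 273 and 257 CPM in WT clones D1 and D4, at 283 and 284 in D538G clones A5 and C2, and at 216 and 239 in Y537S clones 1 and 2. After the miR-301b mimic it stood at 371 and 321 CPM in WT, at 357 and 364 in D538G and at 332 and 333 in Y537S cells. After the miR-331 mimic the values were 367 and 362 CPM in WT and 328 and 320.4 in Y537S cells, and after the miR-181c mimic 332 and 357 in WT and 358 and 369 in D538G cells. All 6 libraries given the mimic control, at 216 to 284 CPM, lay below all 18 other libraries, at 320.4 to 383 CPM. How many of all genes separate the libraries in this way was not counted. These 18 include the inhibitor control (383 and 356 CPM) and the let-7f inhibitor (356 and 328 CPM) in Y537S cells, neither of which is a mimic. The log2 fold change was 0.52 (SE 0.09, adjusted p = 0.0433) after miR-301b and 0.52 (SE 0.10, adjusted p = 0.0135) after miR-331 in Y537S cells. In D538G cells it was 0.34 (SE 0.07, adjusted p = 0.019) after miR-301b and 0.36 (SE 0.07, adjusted p = 0.012) after miR-181c. In WT cells it was 0.38 (SE 0.09, adjusted p = 0.0346) after miR-301b, 0.49 (SE 0.06, adjusted p = 0.00034) after miR-331 and 0.37 (SE 0.07, adjusted p = 0.00779) after miR-181c. All 14 clone pairs were higher in the treated library, by 0.28 to 0.62 on the log2 scale, and these pairs share the 6 libraries given the mimic control. The share of all genes higher in all 14 pairs was not counted.

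The GC content of MCL1 is below that of the median gene (48.6%). With the GC trend removed its log2 fold changes were larger, between 0.42 and 0.68, and 6 of the 7 were still called. The exception was miR-301b in Y537S cells (adjusted p = 0.0661), where 0.0396% of all genes were called higher in that fit and where MCL1 was called once the clone was also a block. Its 3′UTR holds no match to the seed of any of the mimics. The call in Y537S cells given miR-301b was lost whichever library was left out (0.45 to 0.61), and the call after miR-331 in these cells was lost without control clone 1 (0.45). In D538G cells the calls were lost without control clone C2 (0.35) or treated clone C2 (0.33) for miR-301b and without treated clone C2 (0.34) for miR-181c. In WT cells they were lost without control clone D1 (0.43) or D4 (0.34) for miR-301b and without control clone D4 (0.31) for miR-181c. Exons of MCL1 overlap those of ADAMTSL4 on the other strand and ADAMTSL4-AS1 on the same strand, and the strand setting of the counting is not given in the sources used here.

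**Figure D3:**
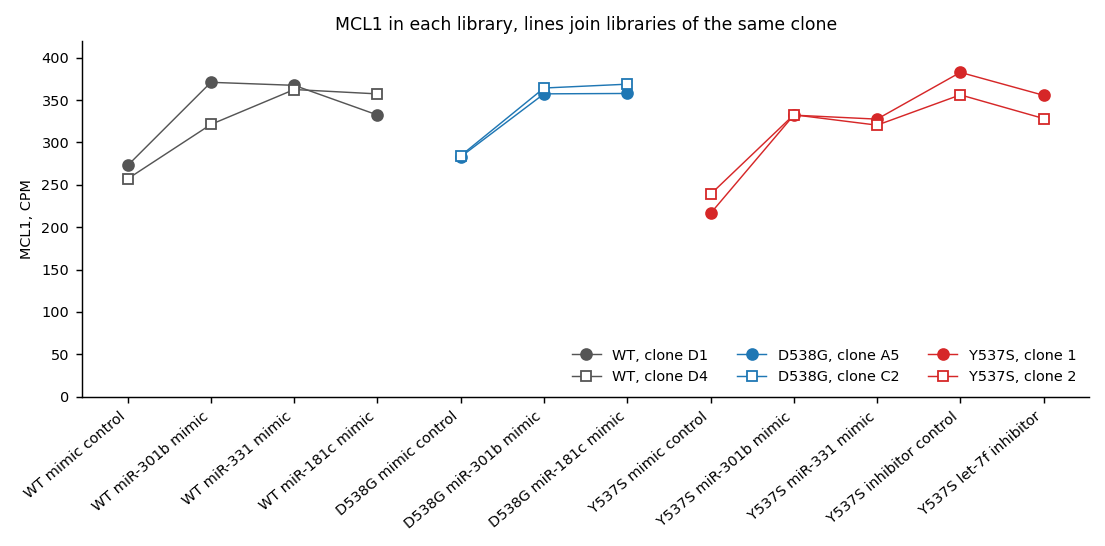
MCL1 in CPM (vertical axis from 0) in each library, by condition; lines join the libraries of the same clone. In all 3 genotypes both clones are lowest with the mimic control (216 to 284 CPM), and the Y537S inhibitor control is as high (383 and 356 CPM) as the treated libraries.

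BCL2L1 (chr20:30252255-30311792, minus strand) encodes BCL-XL, and it rose in 3 of the 7 mimic comparisons. In the mimic control it stood at 208 and 224 CPM in WT, 210.0 and 198 in D538G and 194 and 188 in Y537S cells. The miR-331 mimic gave the highest values in the series, 301 and 281 CPM in Y537S cells, against 243 and 236 in WT cells. Scaled by total counts alone, the means after miR-331 were 265 CPM in Y537S and 245 in WT cells. On that scale the mimic controls had means of 193 and 217 CPM, and WT cells given miR-181c had 260 CPM. After miR-181c it stood at 259 and 261 CPM in WT and 244 and 252 in D538G cells, and after miR-301b at 213 and 243 in WT, 229.7 and 245 in D538G and 217 and 229 in Y537S cells. Every treated library was above the control of its clone, by 0.04 to 0.63 on the log2 scale. The share of all genes for which this holds was not counted. The change was 0.62 after miR-331 in Y537S cells (SE 0.09, adjusted p = 0.00806), 0.28 after miR-181c in D538G cells (SE 0.07, adjusted p = 0.036) and 0.26 after miR-181c in WT cells (SE 0.07, adjusted p = 0.0332). It was 0.18 after miR-331 in WT cells and 0.08 to 0.22 after miR-301b, which did not pass. The clone block called all of these except miR-301b in WT cells. Once the GC trend was removed only miR-331 in Y537S cells was called (0.42, adjusted p = 0.0223), with 14.1% of all genes called higher in that fit. BCL2L1 holds a match to the miR-331 seed, and direct targeting was not tested. The miR-181c calls were lost without control clone C2 (0.24) or treated clone A5 (0.31) or C2 (0.26) in D538G cells, and without any 1 of the 4 libraries in WT cells (0.20 to 0.30). Without WT control clone D4 the change after miR-331 in WT cells was called (0.23).

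BCL2 (chr18:60790579-60987361, minus strand), the founding anti-apoptotic member, was not called after any treatment with or without the clone as a block. It stood at 1.06 and 2.24 CPM in WT clones D1 and D4 given the mimic control, 2.69 and 2.72 in D538G, and 1.39 and 2.64 in Y537S clones 1 and 2. After the miR-181c mimic, whose seed it matches over 8 bases, it stood at 1.02 and 1.13 CPM in WT and 1.92 and 2.09 in D538G cells. The log2 fold changes were -0.63 (SE 0.44, adjusted p = 0.376) in WT and -0.43 (SE 0.29, adjusted p = 0.394) in D538G cells. In D538G cells both treated libraries were below both controls, as 27.4% of all genes were, and in WT cells clone D1 of the control overlapped the treated libraries. After miR-301b the values were 1.09 and 0.845 CPM in WT, 1.94 and 2.19 in D538G and 1.14 and 1.46 in Y537S cells, with log2 fold changes of -0.75, -0.39 and -0.66. BCL2 holds no match for miR-301b, and in D538G cells these values too lay below both controls, as 28.8% of all genes did. Clone 2 of the Y537S cells had more BCL2 than clone 1 in all 5 conditions, and after miR-331 the clones stood at 1.83 and 4.25 CPM (0.61, SE 0.54, adjusted p = 0.426). When the GC trend was removed and the clone kept as a block, this change was called (0.75, adjusted p = 0.0238), where 34.3% of all genes were called higher. In D538G cells the control clones differed by less than the treated libraries did from them, and in WT and Y537S cells the control clones stood apart.

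The effectors BAX and BAK1 encode the proteins that form the pore. BAX (chr19:49458072-49465055, plus strand) stood at 14.3 and 15.6 CPM in WT, 17.8 and 17.0 in D538G and 15.9 and 14.8 in Y537S cells given the mimic control. The highest values were 28.5 and 27.1 CPM in Y537S cells after miR-331. In the other libraries given a mimic BAX lay between 18.5 and 23.8 CPM, above the controls in all 7 comparisons. Of all genes, 33% lay above their controls without overlap after miR-331 in Y537S and 29.4% in WT cells, 28.1%, 29.5% and 28.9% after miR-301b in Y537S, D538G and WT cells, and 27.6% and 32.2% after miR-181c in D538G and WT cells. BAX rose by 0.87 after miR-331 in Y537S cells (SE 0.12, adjusted p = 0.00816), by 0.57 after miR-331 in WT cells (SE 0.11, adjusted p = 0.00319) and by 0.56 after miR-181c in WT cells (SE 0.12, adjusted p = 0.0113). The change after miR-181c in D538G cells was 0.42 (adjusted p = 0.0509), and it was called with the clone as a block, as were the changes of 0.45 and 0.36 after miR-301b in Y537S and WT cells. The change after miR-331 in Y537S cells was 0.57 with the GC trend removed (adjusted p = 0.0254), and no other change of BAX was called. The miR-181c call in WT cells was lost without control clone D1 (0.50) or treated clone D4 (0.47).

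BAK1 (chr6:33540324-33548070, minus strand) stood at 14.7 and 14.4 CPM in WT, 19.6 and 19.8 in D538G and 20.3 and 20.9 in Y537S cells given the mimic control. After miR-181c it stood at 20.9 and 25.7 CPM in WT and 28.3 and 28.5 in D538G cells, and it was called in both (0.66, SE 0.13, adjusted p = 0.00768, and 0.53, SE 0.11, adjusted p = 0.0163). After miR-301b it stood at 26.3 and 25.9 CPM in D538G cells, a rise of 0.40 (SE 0.11, adjusted p = 0.0457). In WT and Y537S cells the miR-301b values were 17.0 and 21.1 CPM and 25.3 and 22.9 CPM, and neither change passed. The miR-331 mimic was followed by 29.2 and 31.2 CPM in Y537S cells (0.57, SE 0.12, adjusted p = 0.0192) and by 15.7 and 16.8 CPM in WT cells (0.18, SE 0.11, adjusted p = 0.275). BAK1 matches the miR-331 seed at 2 sites, and direct targeting was not tested. With the GC trend removed, only the change after miR-181c in WT cells was called (0.45, adjusted p = 0.0399), and adding the block for the clone, those after miR-331 in Y537S cells (0.31) and miR-181c in D538G cells (0.31, with 5.66% of all genes higher) were called too. Left out in turn, any library ended the miR-301b call in D538G cells (0.39 to 0.41), either control the miR-331 call in Y537S cells (0.54 and 0.60), and treated clone C2 the miR-181c call in D538G cells (0.53). Without treated clone D1 the change after miR-301b in WT cells was called (0.53).

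Of the BH3-only genes, BAD rose most often. BAD (chr11:64037302-64052176, minus strand) encodes a protein that binds BCL2 and BCL-XL and is held inactive by survival kinases through phosphorylation. It stood at 26.5 and 29.2 CPM in WT, 35.7 and 36.5 in D538G and 36.9 and 27.0 in Y537S cells given the mimic control. After miR-331 it stood at 78.4 and 61.8 CPM in Y537S and 44.5 and 44.3 in WT cells, after miR-301b at 42.8 and 38.8 in Y537S, 44.1 and 53.6 in D538G and 36.4 and 37.7 in WT cells, and after miR-181c at 52.5 and 52.7 in D538G and 34.8 and 41.1 in WT cells. Treated and control libraries did not overlap in any of the 7 comparisons, in each of which 27.6% to 33% of all genes lay higher without overlap. BAD rose by 1.15 after miR-331 in Y537S cells (SE 0.19, adjusted p = 0.0104), which is 2.22 times the control level, and by 0.70 in WT cells (SE 0.08, adjusted p = 0.00039). Its other calls were 0.55 after miR-181c and 0.43 after miR-301b in D538G cells, and 0.43 after miR-181c and 0.41 after miR-301b in WT cells. The transcript of BAD is richer in GC than 96.8% of genes. With the GC trend removed the rise after miR-331 in Y537S cells remained (0.79, adjusted p = 0.0189), and the other values moved to between -0.03 and 0.12 and were not called. After miR-301b the sign turned in WT cells (-0.01), where BAD had been called, and in Y537S cells (-0.03), where it had not. Exons of BAD overlap those of GPR137 on the other strand. The call in D538G cells after miR-301b was lost without treated clone C2 (0.29), and those in WT cells were lost without control clone D1 (0.34), control clone D4 (0.48) or treated clone D4 (0.39) for miR-301b and without control clone D1 (0.36), control clone D4 (0.49) or treated clone D4 (0.28) for miR-181c.

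BBC3 (chr19:47724079-47736023, minus strand) encodes PUMA, a p53-induced protein that binds all the anti-apoptotic members. It stood at 1.98 and 2.57 CPM in WT, 2.99 and 3.04 in D538G and 1.83 and 1.65 in Y537S cells given the mimic control. After miR-301b it stood at 3.68 and 4.94 CPM in Y537S, 4.74 and 3.47 in WT and 3.64 and 3.47 in D538G cells, and after miR-331 at 4.21 and 3.16 in Y537S and 4.92 and 4.37 in WT cells. Every library given a mimic was above both of its controls, as 27.6% to 33% of all genes were in each mimic comparison. BBC3 rose by 1.10 after miR-331 in Y537S cells (SE 0.31, adjusted p = 0.0426) and by 1.06 in WT cells (SE 0.24, adjusted p = 0.00897). Its largest change, 1.28 after miR-301b in Y537S cells (SE 0.29), had an adjusted p of 0.074 and was called with the clone as a block, as was the change of 0.86 after miR-301b in WT cells. BBC3 has the highest GC content of the members, above that of 99.1% of genes. With the GC trend removed its changes were between -0.22 and 0.85 and none was called, and with the clone as a block as well, those after miR-301b and miR-331 in Y537S cells were (0.83 and 0.66, with 13.1% and 34.3% of all genes higher). The miR-331 call was lost in Y537S cells without either control (1.17 and 1.03) or without treated clone 1 (0.89), and in WT cells without treated clone D1 (0.97).

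BID (chr22:18216904-18257536, minus strand) encodes the protein that links caspase-8 to the mitochondria once it is cut. It had the narrowest range in the controls, 26.9 and 27.0 CPM in WT, 25.3 and 26.5 in D538G and 27.9 and 25.8 in Y537S cells. BID was called after a treatment only for miR-331 in Y537S cells, where it stood at 40.6 and 36.6 CPM. It rose there by 0.54 (SE 0.11, adjusted p = 0.0202), against 28.6 and 30.6 CPM and 0.16 (adjusted p = 0.218) in WT cells. With a GC content near that of the median gene, its value was 0.57 with the GC trend removed (adjusted p = 0.0234). The call was lost without either control (0.59 and 0.49) or without treated clone 1 (0.47). After the other mimics BID lay between 24.3 and 31.9 CPM. Of the 14 clone pairs 11 were higher and 3 lower after a mimic. Treated libraries lay above both controls in 4 of the 7 mimic comparisons, as 27.6% to 33% of all genes did in each.

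BCL2L11 and PMAIP1 had negative log2 fold changes in all 7 mimic comparisons. BCL2L11 (chr2:111876955-111926021, plus strand) encodes BIM, which binds all the anti-apoptotic members and can activate BAX and BAK. It stood at 19.1 and 13.9 CPM in WT, 17.5 and 13.4 in D538G and 17.1 and 20.4 in Y537S cells given the mimic control. After miR-331 it stood at 13.7 and 11.4 CPM in WT and 13.3 and 15.3 in Y537S cells, below both controls in each case (33.4% and 36.8% of all genes lay lower without overlap). The log2 fold changes were -0.37 in WT (SE 0.16, adjusted p = 0.121) and -0.38 in Y537S cells (SE 0.17, adjusted p = 0.137). With the clone as a block both were called (-0.36, adjusted p = 0.0101, and -0.38, adjusted p = 0.00497), and with the GC trend removed as well, the value in WT cells was (-0.30, adjusted p = 0.0453, 15% of all genes lower) and that in Y537S cells was not (-0.24, adjusted p = 0.0589). Without WT control clone D4 the change in WT cells was called with no block (-0.58). After miR-301b the values were 17.8 and 11.3 CPM in WT, 15.5 and 14.9 in D538G and 15.2 and 16.7 in Y537S cells, with log2 fold changes of -0.18, -0.03 and -0.26, and after miR-181c they were 15.6 and 13.7 in WT and 16.2 and 14.1 in D538G cells, with -0.19 and -0.03. None of these passed in any fit with or without the block. BCL2L11 carries a match to both seeds, and direct targeting was not tested. Exons of BCL2L11 overlap those of MIR4435-2HG on the other strand.

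PMAIP1 (chr18:57567228-57571537, plus strand) encodes NOXA, which binds MCL1 and leads to its degradation. It stood at 1.25 and 1.46 CPM in WT, 2.25 and 1.94 in D538G and 1.89 and 2.40 in Y537S cells given the mimic control. After miR-331 it stood at 0.663 and 0.559 CPM in WT and 0.917 and 1.26 in Y537S cells, and after miR-301b at 0.904 and 1.01 in D538G cells, without overlap with the controls (28.8% of all genes lay lower without overlap in this D538G comparison). The log2 fold changes were -1.12 (SE 0.42, adjusted p = 0.0748), -0.96 (SE 0.38, adjusted p = 0.111) and -1.13 (SE 0.37, adjusted p = 0.0753), respectively. With the clone as a block all 3 were called (adjusted p = 0.0479, 0.0272 and 0.00993), and with the GC trend removed as well none was (-0.96, -0.39 and -0.79). PMAIP1 has the lowest GC content of the members and 22 to 42 counts in the treated WT and D538G libraries of these comparisons. After miR-301b the clones of WT cells went apart, with 1.63 CPM in D1 and 0.501 in D4, and so did those of Y537S cells, with 2.09 and 1.28. After miR-181c, whose seed it matches, PMAIP1 stood at 1.10 and 1.18 CPM in WT and 1.34 and 2.23 in D538G cells, with log2 fold changes of -0.26 and -0.24 that did not pass.

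The values above were also set beside the GC content of the members. The 5 members with the highest GC content (BCL2L1, BAK1, BAX, BAD and BBC3) were higher in all 14 clone pairs, as was MCL1. These pairs share the 6 libraries given the mimic control, and the share of all genes higher in all 14 was not counted. Removing the GC trend reduced the number of calls from 26 to 11, of which 6 were of MCL1, 4 were of BCL2L1, BAX, BID and BAD after miR-331 in Y537S cells, and 1 was of BAK1 after miR-181c in WT cells. In that fit 5 of 10 members were called higher after miR-331 in Y537S cells (14.1% of all genes), 2 after miR-181c in WT cells (2.6%), 1 in each of miR-331 and miR-301b in WT cells (2.46% and 1.53%) and miR-301b and miR-181c in D538G cells (0.546% and 0.54%), and 0 after miR-301b in Y537S cells (edgeR; 3 members had an unadjusted p under 0.05 and DESeq2 called 1 before the correction). The part of GC content in these values was not tested further.

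**Figure D4:**
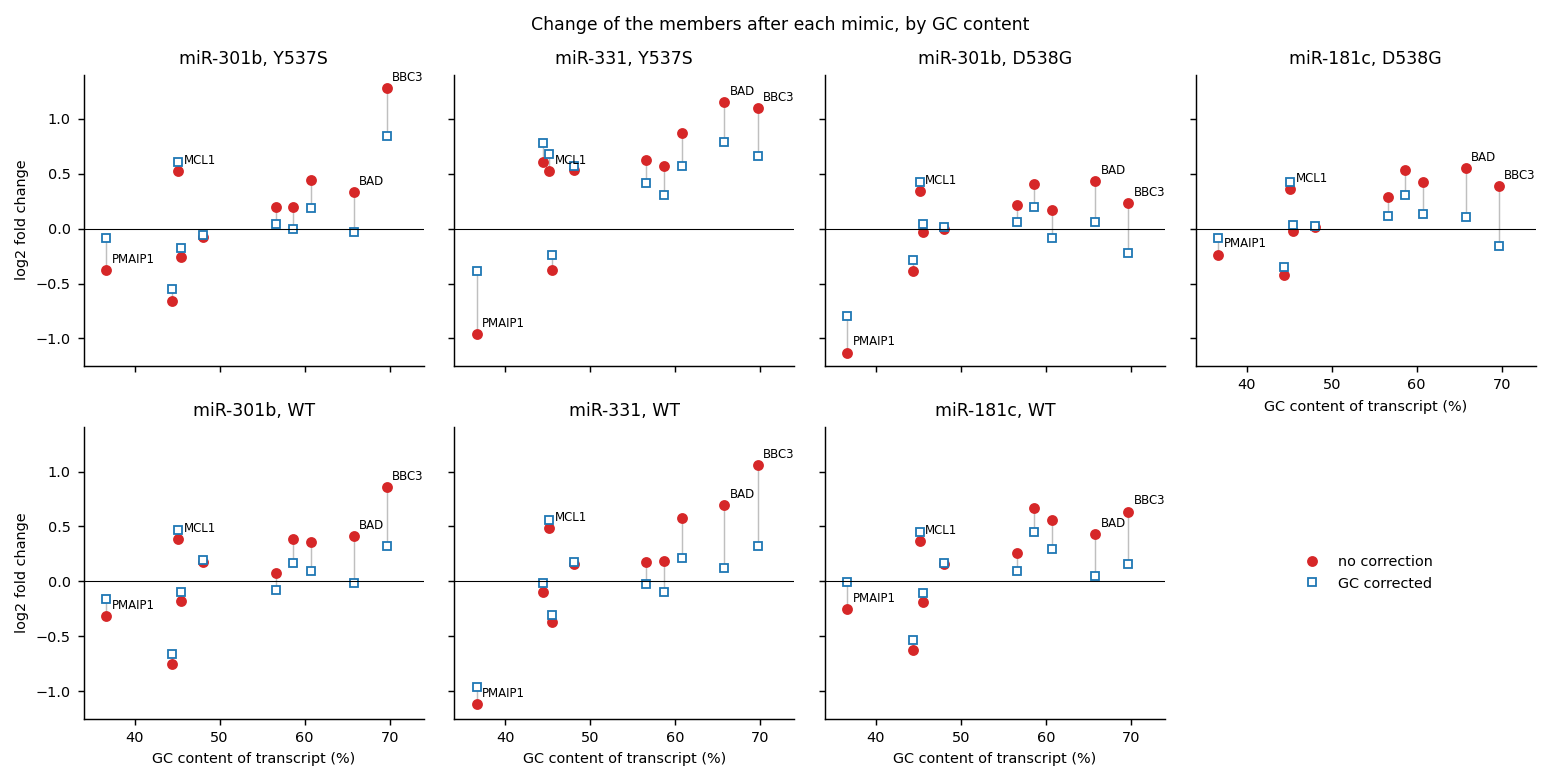
Log2 fold change of the 10 members after each mimic (vertical axis) against the GC content of their canonical transcripts in percent (horizontal axis); red points, no correction; open blue squares, GC trend removed. BAD and BBC3, at 65.8% and 69.7% GC, move down with the correction in all 7 panels, and MCL1, at 45.1%, moves up.

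The study used the same mimics in mutant and WT cells, which allows the responses to be compared. For each shared mimic the difference of the log2 fold changes, mutant minus WT, was tested over 8 libraries. For miR-331 in Y537S and WT cells 9 of the 10 differences were positive, with a median of 0.32, against -0.03 over all genes tested. One passed, that of BCL2L1, at 0.43 (SE 0.10, adjusted p = 0.0338; 3.47% of all genes called higher). The rise of BCL2L1 was 0.63 and 0.58 in Y537S clones 1 and 2 and 0.22 and 0.08 in WT clones D1 and D4. The clones of the genotypes thus did not overlap, and the share of all genes for which this holds was not counted. Without the GC trend the difference was 0.42 (adjusted p = 0.0207), and BAD was called as well (0.65, adjusted p = 0.0377), where 6.89% of all genes were called higher. With the clone as a block 4 members were called higher, BCL2L1 (0.43), BAD (0.44), BAK1 (0.37) and BID (0.36), where 16.7% of all genes were. The call of BCL2L1 was lost when any library but Y537S treated clone 2 was left out (0.36 to 0.47 over the 7 other fits). MCL1 gave a difference of 0.02 (SE 0.11), BBC3 of 0.03 (SE 0.37), BCL2L11 of -0.02 (SE 0.26) and PMAIP1 of 0.14 (SE 0.51). For miR-301b in Y537S and D538G cells and for miR-181c in D538G cells, each against WT, no member was called by edgeR or DESeq2 with or without the block, and none had an unadjusted p under 0.05. In each of these 3 comparisons 1 gene was called by edgeR, which is 0.00632%, 0.0064% and 0.00646% of those tested.

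**Figure D5:**
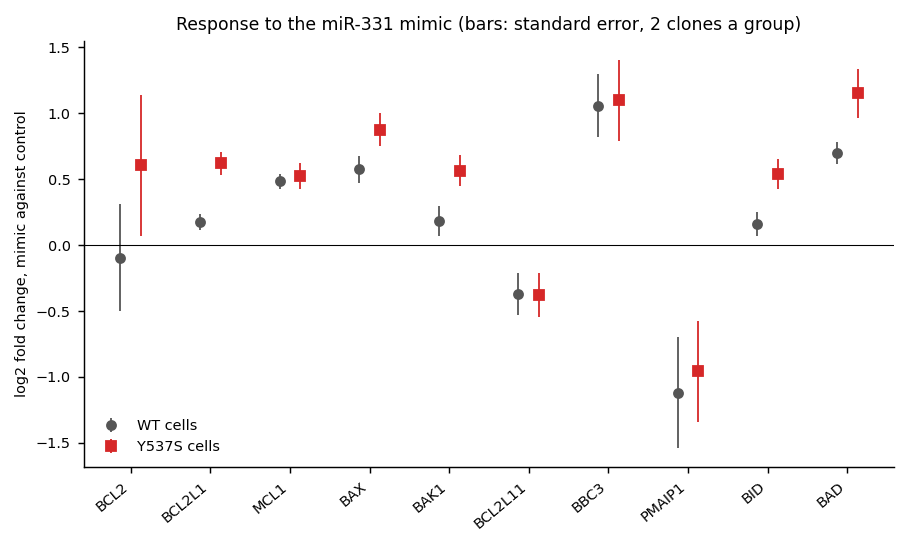
Log2 fold change of the 10 members after the miR-331 mimic (vertical axis, with standard errors) in WT cells (grey circles) and Y537S cells (red squares). The points of BCL2L1 are 0.18 in WT and 0.62 in Y537S cells, and those of MCL1, BCL2L11 and BBC3 lie side by side.

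Levels by genotype were compared in cells given the mimic control. BAK1 was higher in both mutants. It stood at 20.3 and 20.9 CPM in Y537S and 19.6 and 19.8 in D538G against 14.7 and 14.4 in WT cells, with log2 fold changes of 0.52 (SE 0.13, adjusted p = 0.0218) and 0.42 (SE 0.12, adjusted p = 0.0214). It was the only member called in Y537S cells, where 16.3% of all genes were called higher and 12.7% lower. In D538G cells 2 members were called, BAK1 and BAD (0.36, SE 0.10, adjusted p = 0.0172), where 20.4% of all genes were called higher and 18.5% lower. BAD stood at 35.7 and 36.5 CPM in D538G against 26.5 and 29.2 in WT cells, and at 36.9 and 27.0 in Y537S clones 1 and 2, of which that of clone 2 lay between the WT values. BAK1 was still called when the GC trend was removed (0.53 and 0.40, with 16.7% and 21.4% of all genes higher), and BAD was not (0.24, adjusted p = 0.0652). The BAK1 call was lost without either WT control (0.53 and 0.50) in Y537S cells, and without either WT control (0.42 and 0.40) or D538G clone C2 (0.42) in D538G cells, and that of BAD without WT clone D1 (0.28). Without Y537S clone 2, BAD was called higher (0.42) and MCL1 lower (-0.28) in Y537S than in WT cells, and without WT clone D4, BCL2 was called higher in D538G cells (1.33). In cells given the miR-301b mimic instead of the control, BAK1 gave 0.34 between Y537S and WT cells and was not called.

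Between the mutants no member was called by edgeR, of which 2 had an unadjusted p under 0.05, while 3.93% of all genes were called higher and 2.26% lower in Y537S cells. DESeq2 called 1, MCL1, which stood at 216 and 239 CPM in Y537S and 283 and 284 in D538G cells (-0.29, SE 0.09, edgeR adjusted p = 0.104). Without Y537S clone 2 this difference was called by edgeR (-0.38). MCL1 was also lower in Y537S than in WT cells (273 and 257 CPM), where it did not pass (-0.20, adjusted p = 0.115). The BBC3 levels of 1.83 and 1.65 CPM in Y537S cells were below those of 2.99 and 3.04 in D538G cells, and this difference did not pass either (-0.77, SE 0.30, adjusted p = 0.177).

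The let-7f inhibitor was compared with the inhibitor control in Y537S cells. No member and no other gene was called by edgeR (0%). Of the members 1 had an unadjusted p under 0.05 and DESeq2 called 0. This member was BCL2L1, which carries a let-7f seed match of 8 bases in its 3′UTR, and which stood at 213 and 216 CPM with the inhibitor and 186 and 187 with the control (0.21, SE 0.07, adjusted p = 0.906). With the clone as a block BCL2L1 was called higher (adjusted p = 0.00074; 4.31% of all genes higher) and MCL1, at 356 and 328 against 383 and 356 CPM, was called lower (-0.11, adjusted p = 0.0307; 6.88% lower). The largest negative values were those of BCL2 (-0.49), PMAIP1 (-0.36) and BAX (-0.24), which did not pass.

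The mimic and inhibitor controls were compared in Y537S cells, since each is the reference of other treatments. No gene was called by edgeR (0%), and 3 members had an unadjusted p under 0.05. The median log2 fold change of the 10 members was 0.20, and 8 were positive, against a median of -0.003 over all genes tested. With the GC trend removed these medians were 0.17 and -0.02. DESeq2 called 1, MCL1, at 383 and 356 CPM with the inhibitor control against 216 and 239 with the mimic control (0.69, SE 0.09, edgeR adjusted p = 0.357). This difference between controls was larger than the 0.52 after either mimic in the same cells. A block for the clone called MCL1, BAX and BAD higher in the inhibitor control (0.69, 0.34 and 0.26; 8.87% of all genes higher) and BCL2L11 lower (-0.29; 7.84% lower). The cause of the difference was not tested.

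Genes around the family were taken from 5 lists with 59 genes: other BCL2 family genes, the apoptosome and caspases, inhibitors of apoptosis (IAPs) and their antagonists, the death receptor pathway and the p53 pathway. After miR-331 15 of 52 tested rose and 14 fell in Y537S cells (17.2% and 15.8% of all genes), and 13 of 53 rose and 8 fell in WT cells (14.2% and 10.6%). After miR-301b 1 of 52 rose and 3 fell in Y537S (1.23% and 2.34% of all genes), 3 of 52 rose and 4 fell in D538G (5.29% and 6.49%), and 5 of 52 rose and 2 fell in WT cells (4.63% and 3.87%). After miR-181c 2 of 53 rose and 1 fell in D538G (5.58% and 3.95%), and 6 of 52 rose and 3 fell in WT cells (8.1% and 8.28%), and after the let-7f inhibitor edgeR and DESeq2 called 0, with 4 at an unadjusted p under 0.05. The median log2 fold change of the tested genes among the 59 was between -0.02 and 0.08 in the 8 comparisons. CDKN1A, the cell cycle inhibitor p21, rose from 41.4 to 94.2 CPM after miR-331 in Y537S cells (1.20, adjusted p = 0.0094) and after miR-181c in D538G (0.93) and WT cells (0.79). It was still called in these 3 comparisons with the GC trend removed. ZMAT3, an RNA-binding protein of the p53 pathway, fell after miR-301b in all 3 genotypes (by 0.92 in Y537S, 0.68 in D538G and 0.77 in WT cells on the log2 scale) and of these changes that in WT cells was still called with the GC trend removed. CYCS, which encodes the cytochrome c released by the pore, fell after miR-301b by 0.74 in Y537S and 0.66 in D538G cells, of which the latter was still called with the GC trend removed. The BH3-only gene BMF rose by 0.85 in Y537S cells and BIK by 0.87 in WT cells after miR-301b. Neither was called with the GC trend removed, where the values were 0.73 and 0.74. ENDOG, a mitochondrial nuclease, rose by 0.95 to 1.22 after miR-301b in D538G and after miR-331 in Y537S and WT cells, and was not called with the GC trend removed. Of the other genes named by the same rule, PHLDA3, SESN2 and BIRC7 rose in 1 or 2 comparisons each (0.57 to 1.49), ZMAT3 rose by 0.40 and BIRC6 fell by 0.37 after miR-181c in D538G cells. Of these, the changes of PHLDA3 and ZMAT3 were still called with the GC trend removed. With the clone as a block as well, every change named here was called except that of BIRC7 after miR-331 in WT cells. In that fit 13.1% of all genes were called higher after miR-301b and 34.3% after miR-331 in Y537S cells.

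In the same lists 11 of 51 genes were higher and 5 lower in Y537S than in WT cells (16.3% and 12.7% of all genes), 10 were higher and 11 lower in D538G than in WT cells (20.4% and 18.5%), and 3 were higher in Y537S than in D538G cells (3.93%). BIRC5, which encodes survivin and is expressed in dividing cells, was higher in both mutants (1.77 in Y537S and 1.55 in D538G), from 40.2 CPM in WT to 136 and 119 CPM. The BH3-only gene BIK was lower in both (-1.20 and -1.04). ENDOG and AEN, a p53-induced nuclease, were higher in both mutants (1.19 and 1.09 in Y537S and 0.81 and 1.07 in D538G cells). BCL2L2, the anti-apoptotic gene of BCL-W, the apoptosome gene APAF1 and the p53 inhibitor MDM2 were higher in Y537S than in D538G cells (0.82, 0.63 and 0.47). With the GC trend removed, ENDOG in D538G cells was not called (0.65, edgeR adjusted p = 0.0577), and the other changes named in this paragraph were. DESeq2 did not call ENDOG in D538G cells either (adjusted p = 0.0529).

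For each member the genes with the most similar pattern of log2 CPM over the 24 libraries were looked up among 13112 genes, as a description. MCL1 followed PDCD6 (Pearson r = 0.970) and CRK (0.888), and BAD followed YIF1A (0.975) and POLR2L (0.968). BCL2L1 was most like WDTC1 and ERI3 (0.936 and 0.932), BAX most like ZDHHC24 and MEX3D (0.931 and 0.908), and BAK1 most like REEP4 and KCTD5 (0.918 and 0.917). The closest genes of BBC3 were TMEM259 and TMC6 (0.870 and 0.856), those of PMAIP1 RCN2 and TPMT (0.871 and 0.855), that of BID EEF1G (0.889), those of BCL2 OGFOD1 and MRPS30 (0.828 and 0.828), and those of BCL2L11 SLFN13 and ANKRD34B (0.731 and 0.689). Libraries of a clone and of a treatment share their source in these correlations.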

How the data were processed

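The authors sequenced poly-A RNA of T-47D cells, used HISAT2 for alignment to hg19 and featureCounts (Subread) for gene counting, and deposited raw counts in 3 tables, 1 per genotype. Strand setting and treatment of multi-mapping reads are not given in the sources used here. The tables held no columns left unused (0). Column names for D538G and WT clones are A5, C2, D1 and D4, which show the group and the clone but not which labelled sample they are, so they were used as clones of their group.

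Gene counts were tested with edgeR 4.0.16 (R 4.3.3; TMM, filterByExpr with its minimum count of 10, quasi-likelihood F test) on the whole table with only the libraries compared, and p-values were adjusted over all genes tested by the Benjamini-Hochberg method, with a threshold of 0.05. All libraries differed from the other clone of their condition by more than counting noise (chi-square per gene of 12.0 to 52.3). Levels are CPM with TMM factors over 24 libraries. Totals of 31379962 to 50526442 counts limit precision for genes with few counts, and counts of reads without molecular identifiers are not independent molecules. Scripts were tested on simulated counts with known changes.

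Same-named clones are the same cell line, so the clone pairs libraries within a genotype. The correlation over genes of the clones' deviations between treated and control libraries was 0.54 to 0.59 in Y537S, 0.24 and 0.25 in D538G and 0.17 to 0.24 in WT cells. Genotypes are different cell lines and were not paired. The alternatives were the clone as a block, removal, library by library, of a lowess trend over GC content (span 0.3), both together, DESeq2 1.42.0, RLE size factors, no filter on low counts, more libraries in the fit, and each library left out.

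GC content, gene positions and 3′UTRs came from the canonical transcripts of GENCODE lifted to GRCh37, matched by symbol for 22494 genes and by an older symbol for 1363, with 2507 not matched. Besides the 10 members, the text names in each treatment and genotype comparison up to 3 genes of the pathway lists with the largest absolute log2 fold change among those called, with a mean of at least 1 CPM and the same direction in both clones (for genotypes, without overlap), and for each member the 2 genes with the highest Pearson r. Of the genes this rule names, 2 are not reported here. The members and lists were chosen with earlier results of these data known.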

Additional observations from a re-analysis of the deposited data

Results flagged for a closer look

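The response of BCL2L1 to the miR-331 mimic differed between Y537S and WT cells, by 0.43 on the log2 scale (edgeR interaction term, SE 0.10, adjusted p = 0.0338). BCL2L1 was higher after the mimic in all 4 clones, by 0.63 and 0.58 in Y537S and by 0.22 and 0.08 in WT cells. With total counts instead of TMM factors, its mean rose from 193 to 265 CPM in Y537S and from 217 to 245 in WT cells. With the GC trend removed, the response of BAD to the same mimic was also called different (0.65, adjusted p = 0.0377). The cause was not tested.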

How the results depend on the processing

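With the clone as a replicate block, members called numbered 5 after miR-301b in each of Y537S, D538G and WT cells, 7 after miR-331 in WT cells, 2 with the let-7f inhibitor, 4 between the controls in Y537S cells and 4 for the difference in miR-331 response. The block ended no call, and of 130 log2 fold changes it added 24 calls. With the replicate block and GC correction together these numbers were 2, 1 and 1 after miR-301b in Y537S, D538G and WT cells, 2 after miR-331 in WT cells, 2 after miR-181c in each of D538G and WT cells, 2 with the let-7f inhibitor, 1 between the controls and 4 for the difference in response. With the GC correction alone they were 0, 1 and 1 after miR-301b in Y537S, D538G and WT cells, 1 after miR-331 in WT cells, 1 and 2 after miR-181c in D538G and WT cells, 1 for D538G against WT and 2 for the difference in response. BAD after miR-301b in WT cells turned from 0.41 to -0.012 with the GC correction, with or without the block. In Y537S cells it turned from 0.33 to -0.03 with the GC correction, where it was called in neither fit. No paired analysis was possible for genotypes because they are different cell lines.

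DESeq2 called 1 member between the mutants and 1 between the controls, as did edgeR without a filter on low counts. With all 24 libraries in 1 fit, 3 were called for Y537S against WT, 1 for D538G against WT and 2 between the mutants, and with all libraries of a genotype in 1 fit, 2 after miR-301b in Y537S cells, 4 after miR-301b in WT cells and 1 between the controls. In libraries given the miR-301b mimic 0 were called by edgeR for Y537S against WT. RLE size factors changed none of the 16 counts. With levels scaled by total counts instead of TMM factors, 12 mean levels moved by at least their SD and 108 did not. Those that moved include BCL2L1, MCL1, BAX, BAK1 and BID after miR-331 in Y537S cells. With total counts the means there were 265 CPM for BCL2L1 (291 with TMM), 295 for MCL1 (324) and 25.3 for BAX (27.8). Those of BAK1 and BID were 27.6 (30.2) and 35.1 (38.6). Seed matches of 8 bases were held by 3 pairs of a member and a miRNA, against 8 with 7 bases.

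Leaving out each library in turn gave 0 to 0 calls after miR-301b in Y537S, 0 to 2 in D538G and 0 to 3 in WT cells, 3 to 7 after miR-331 in Y537S and 3 to 6 in WT cells, 1 to 4 and 2 to 4 after miR-181c in D538G and WT cells, 0 to 0 with the let-7f inhibitor and between the controls, 0 to 3 for Y537S against WT, 0 to 2 for D538G against WT, 0 to 1 between the mutants, 0 to 1 for the difference in miR-331 response, and 0 to 0 for the 3 other differences in response. A group then holds 1 library, which is assumed to vary like the others. Where a call was lost the cause was not tested, beyond the fewer libraries. Depth limits BCL2, PMAIP1 and BBC3, with at most 209 counts per library.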
